A study of Drosophila melanogaster with 6 samples.

Results

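The heat shock chaperones of the fly head were described in male Drosophila melanogaster kept alone or in company. Single-housed males lived 1 fly per vial and group-housed males 10 flies per vial, in both cases for 6 days after eclosion, and the series calls the single-housed males the more aggressive. Each group was measured on 3 biotin-labelled 1-colour Affymetrix arrays, 1 array per pool of 20 heads, and the heads of both groups were taken in the same hour of the late afternoon. The labels give no genotype, strain or batch and name no heat treatment. Since 20 heads were pooled, fewer cells of a type and less RNA per cell cannot be told apart.

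Of the 10 chaperone genes considered, 7 had a probe set whose platform annotation named that gene and no other. Each of the 7 had 1 such probe set, which makes 7 of the 18769 probe sets that are not controls. They are the heat-inducible genes Hsp26, Hsp27 and DnaJ-1 and the constitutive genes Hsc70-2, Hsc70-3, Hsc70-4 and Hsc70-5. Both probe sets that list Hsp22 list CG4456 as well, so Hsp22 was not counted as measured. Hsp23 and Hsp83 were not analysed here.

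Chaperones bind proteins that are unfolded, newly made or damaged and keep them from clumping. When cells are heated or otherwise stressed, the transcription factor encoded by Hsf switches on the heat-inducible genes: small heat shock proteins hold unfolded clients, and J proteins such as DnaJ-1 pass them to Hsp70 for refolding with ATP. The cognate Hsc70 proteins do the same work in unstressed cells, and Hsc70-4 is known for its part in recycling synaptic vesicles at nerve endings. Extra small heat shock protein is known to lengthen the life of flies, and Hsp70 with its J protein to protect fly neurons from toxic protein aggregates.

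Against the label of head tissue, the neuronal, photoreceptor and glial markers with a probe set of their own all passed the filter on dim probe sets. So did 4 of the 6 testis, 3 of the 4 male accessory gland and all 3 yolk protein markers. The tested testis markers were dim, with normalized log2 group means from 4.63 to 5.00, near the filter limit of 4.69. Acp36DE and SP of the accessory gland were dim as well, at 4.66 to 4.93. For these dim markers, passing the filter carries little weight. The summed signal of the testis markers was 49.99 to 70.89 in single-housed heads, against 47.23 to 57.02 in group-housed heads. The neuronal sum was 2590 to 3054 against 3041 to 3671, the photoreceptor sum 6603 to 7972 against 6858 to 8224. The glial sum was 5370 to 5691 in single-housed against 4775 to 5272 in group-housed heads. Values below are quantile normalized log2(intensity + 16), and differences (single-housed minus group-housed) carry the standard error (SE) and 95% interval of limma's fit over 13138 probe sets. A probe set counts as called at a Benjamini-Hochberg adjusted p under 0.05. The labels call the 3 pools of a group biological replicates, and an exact permutation test of 3 arrays against 3 cannot go below p = 0.1.

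None of the 7 chaperone genes was called (limma, lowest adjusted p 0.237), where 2 of all 13138 probe sets, 0.0152%, were. At unadjusted p 0.05 there were 2, DnaJ-1 and Hsc70-2, both lower in single-housed heads, against 8.24% of all probe sets in either direction and 3.67% in the lower one. For the same 2 genes the arrays of the housing groups did not overlap, as was the case for 14.2% of all probe sets, or 7.95% with single-housed lower. All 7 passed the filter on dim probe sets.

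**Figure D1:**
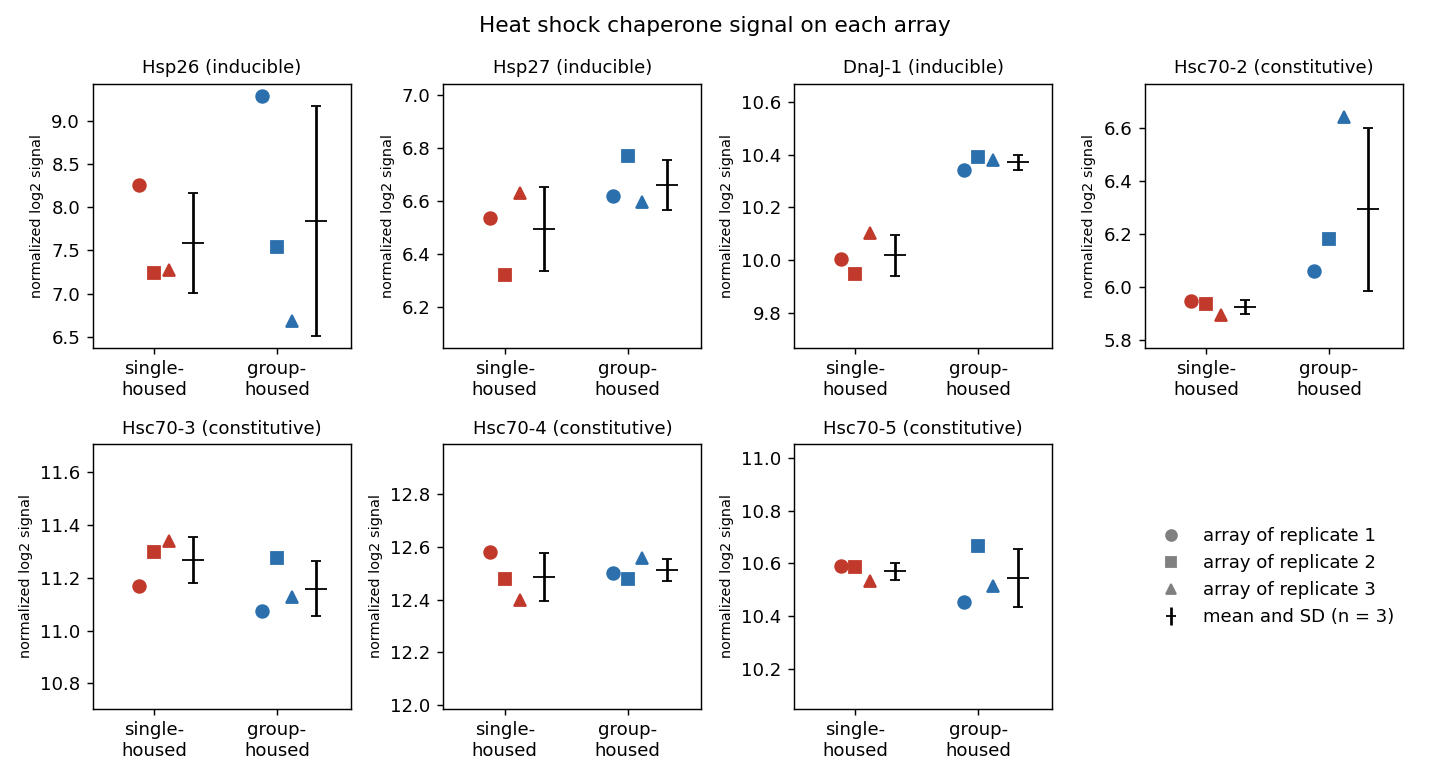
Quantile normalized log2 signal of each chaperone gene on each array, single-housed left and group-housed right, with 1 symbol per replicate number and the mean and SD of 3 arrays beside them. The vertical scales differ between panels, spanning about 1 log2 unit except for Hsp26, whose group-housed arrays run from 6.69 to 9.30. DnaJ-1 and Hsc70-2 are the panels without overlap.

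DnaJ-1, the heat-inducible J protein (Hsp40) that hands clients to Hsp70, gave the smallest p of the chaperones. Its probe set 1637059_s_at read 10.00, 9.95 and 10.10 in single-housed heads, against 10.34, 10.39 and 10.38 in group-housed heads. Every group-housed array lay above every single-housed array, and the group-housed arrays were close together. Means were 10.02 ± 0.079 in single-housed heads, against 10.37 ± 0.027 in group-housed heads (SD, n = 3).

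The DnaJ-1 difference was -0.35 (SE 0.069, interval -0.51 to -0.19), or 1.28-fold lower in single-housed heads. It ranked 41 by p among all probe sets tested, and limma's unadjusted p of 0.000739 became an adjusted p of 0.237. By exact permutation p was 0.1, the smallest possible. With any 1 array left out the DnaJ-1 difference stayed between -0.40 and -0.32. On the deposited scale the DnaJ-1 intensities were 1169, 1094 and 999.6 in single-housed heads, against 1281, 1159 and 1237 in group-housed heads. There the groups overlapped by 1 array, and the difference was -0.17 with the deposited scaling. In that scaling the median of all probe sets was 0.099, a shift of 0.12 from the -0.017 after quantile normalization, and relative to that median DnaJ-1 was at -0.27, against -0.33 after quantile normalization.

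Hsp26 encodes a small heat shock protein of the cytosol and varied more between arrays than the other 6 chaperone genes. Its probe set 1635044_at read 8.26, 7.24 and 7.27 in single-housed heads, against 9.30, 7.54 and 6.69 in group-housed heads. The group-housed arrays held both the highest value, on replicate 1, and the lowest, on replicate 3, and the single-housed values all lay between them. The deposited intensities were 334, 146 and 130.3 in single-housed heads, against 609, 146 and 89.2 in group-housed heads, a 6.82-fold range within the group-housed arrays.

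The Hsp26 difference was -0.25 (SE 0.57, interval -1.56 to 1.06, limma adjusted p 0.939). Its direction rested on 1 array: without group-housed replicate 1 it was 0.48, and without group-housed replicate 3 it was -0.83. Without single-housed replicates 1, 2 and 3 it was -0.58, -0.072 and -0.088. The interval spans from 2.94-fold lower to 2.08-fold higher in single-housed heads. The residual SD of Hsp26, 1.03, was exceeded by 74 of the 13138 probe sets tested.

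Hsp27, a small heat shock protein found in the nucleus as well as the cytosol, showed no such range although it lies in the same gene cluster. RefSeq's genes for the fly assembly Release 6 plus ISO1 MT place the cluster in the order Hsp67Bc, CG4456, Hsp22, CG4461, Hsp26, Hsp67Ba, an antisense RNA gene, Hsp23 and Hsp27. The Hsp27 probe set 1628117_at read 6.53, 6.32 and 6.63 in single-housed heads, against 6.62, 6.77 and 6.60 in group-housed heads. The groups overlapped through single-housed replicate 3. The Hsp27 difference was -0.17 (SE 0.12, interval -0.43 to 0.098, limma adjusted p 0.741), and without single-housed replicate 2, the array with the lowest value, it was -0.077. It was -0.067 with the deposited scaling, and its residual SD of 0.131 was below the median of 0.156 over all probe sets.

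**Figure D2:**
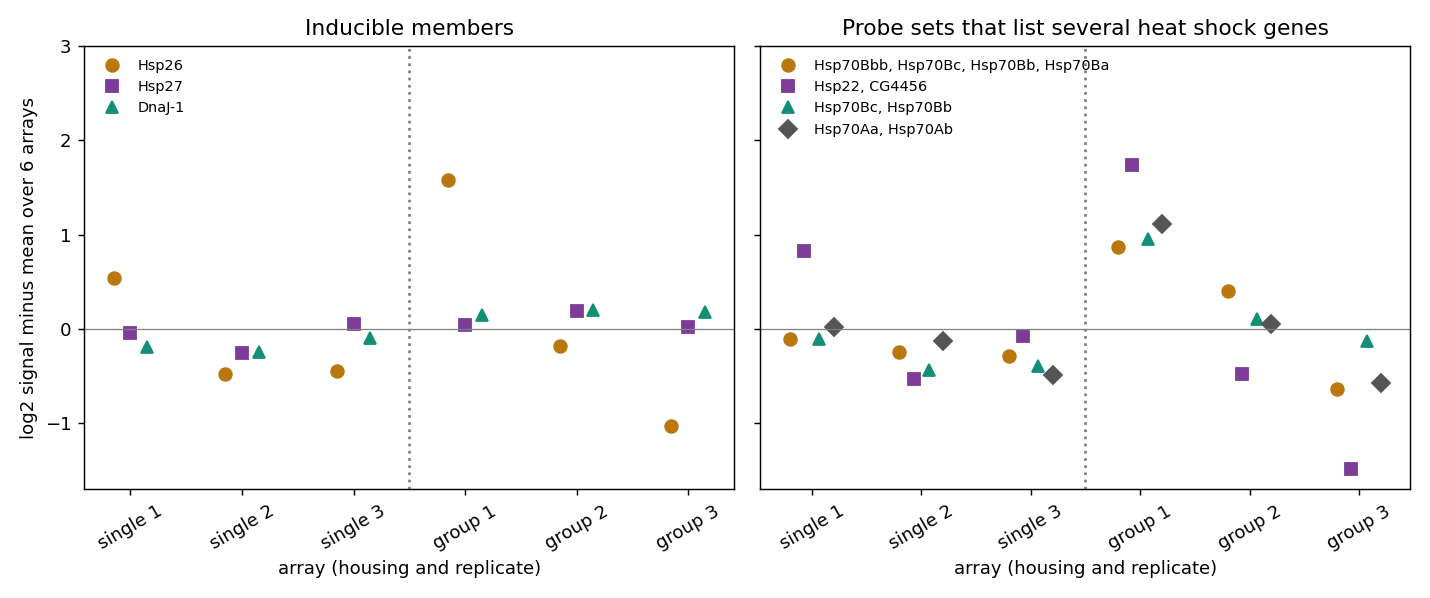
Log2 signal minus the probe set's own mean over the 6 arrays, for the inducible chaperone genes (left) and for the tested probe sets whose annotation lists several heat shock genes (right), by array. Hsp26 and all 4 multi-gene probe sets are highest on group-housed array 1, while Hsp27 and DnaJ-1 stay within 0.3 of their means.

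The array-to-array pattern of Hsp26 was set beside probe sets that list several heat shock genes, a comparison chosen after the values were seen. These cannot be credited to 1 gene, because the Hsp70 copies are near-identical and CG4456 overlaps Hsp22. There were 7 such probe sets, 2 listing Hsp22 with CG4456 and 5 listing copies of Hsp70, the main heat-induced refolding chaperone. Of the 7, 4 were bright enough to be tested, and none of the 4 was called (limma, 1 at unadjusted p 0.05).

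The tested probe set for Hsp22 and CG4456, 1629061_s_at, had deposited intensities of 2178, 824 and 949 in single-housed heads, against 3468, 658 and 366 in group-housed heads. Its log2 difference was 0.15 (SE 0.70, limma adjusted p 0.974). The probe set for Hsp70Aa and Hsp70Ab, 1639571_s_at, had 242, 206 and 136 in single-housed heads, against 462, 189 and 136 in group-housed heads. The probe set that lists Hsp70Ba, Hsp70Bb, Hsp70Bbb and Hsp70Bc, 1626821_s_at, had 118, 98.3 and 84.2 in single-housed heads, against 216 and 133 on group-housed arrays 1 and 2 and 69.9 on array 3. The one for Hsp70Bb and Hsp70Bc, 1632841_x_at, gave the unadjusted p under 0.05, with a log2 difference of -0.63 (SE 0.26, limma adjusted p 0.594) and overlapping groups. All 4 tested probe sets, like Hsp26, were highest on group-housed array 1, and 3 of the 4 were lowest on group-housed array 3. Of the untested ones, 1630487_s_at lists Hsp22 and CG4456 too, and 1629827_s_at the same Hsp70B copies as 1626821_s_at. Both were highest on single-housed array 2, at deposited intensities of 5.36 and 10.8. The untested 1626832_at, listing CG31343, Hsp70Bb and Hsp70Bc, was highest on group-housed array 1, at 14.6. At such low signal the order of arrays carries little weight.

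Likeness to Hsp26 was measured as the root mean square difference between log2 values over the 6 arrays, each probe set centred on its own mean. The tested probe set for Hsp22 and CG4456 was at 0.302 and the one for Hsp70Aa and Hsp70Ab at 0.384. Those for the Hsp70B copies, 1626821_s_at and 1632841_x_at, were at 0.503 and 0.535. None of the 10727 tested probe sets of a single other gene was closer to Hsp26 than the Hsp22 and Hsp70A ones, while 5 and 6 were closer than the Hsp70B ones. The closest of those were CG5107 at 0.396, CG14636 at 0.403, MtnC, which encodes a metallothionein that binds metal ions, at 0.462, CG10953 at 0.473 and MFS3 at 0.4997. MtnC and CG10953 were dim, with group means between 4.71 and 4.93 near the filter limit of 4.69. Among the chaperone genes, Hsp27 and DnaJ-1 were at 0.842 and 0.855, with 4332 and 5190 of the 10727 probe sets closer to Hsp26. The measure is not scaled for spread, so genes that vary little lie at such distances whatever their pattern. The SD over the 6 arrays was 0.149 for Hsp27 and 0.200 for DnaJ-1, against 0.928 for Hsp26. Only widely varying probe sets can lie close to Hsp26, and 74 of the 13138 tested exceeded its residual SD.

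No tissue marker list followed Hsp26 across the arrays in full. On group-housed array 1 the mean deviations of the lists ran from -0.56 for the head fat body to 0.69 for the yolk protein genes Yp1, Yp2 and Yp3, and on group-housed array 3 from -1.66 for gut proteases to 0.38 for the yolk protein genes. The part of these markers in the spread of Hsp26 was not tested.

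The constitutive genes Hsc70-3, Hsc70-4 and Hsc70-5 varied little within a group, with residual SDs of 0.0961, 0.0718 and 0.0813, while Hsc70-2 was at 0.219. Hsc70-4 is the major Hsc70 of the cytosol. Its probe set 1630637_s_at read 12.58, 12.48 and 12.40 in single-housed heads, against 12.50, 12.48 and 12.56 in group-housed heads. These groups overlapped nearly completely, and the Hsc70-4 difference was -0.027 (SE 0.063, limma adjusted p 0.94). Its interval of -0.17 to 0.12 leaves room for a change of up to 1.12-fold lower or 1.08-fold higher. The sign depended on the scaling, with 0.17 in the deposited scaling and 0.080 after median centring, and was also positive, at 0.016, without single-housed replicate 3.

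Hsc70-5 is the Hsp70 of the mitochondrial matrix, which pulls imported proteins through the inner membrane. Its probe set 1627109_at read 10.59, 10.59 and 10.53 in single-housed heads, against 10.45, 10.67 and 10.51 in group-housed heads, with the group-housed arrays on both sides of the others. The Hsc70-5 difference was 0.026 (SE 0.074, interval -0.14 to 0.19, limma adjusted p 0.954). It was 0.21 with the deposited scaling, where the median of all probe sets was itself 0.099, and 0.087 without group-housed replicate 2.

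Hsc70-3, the BiP of flies and the Hsp70 of the endoplasmic reticulum, is the constitutive gene with the highest difference. Its probe set 1635423_s_at read 11.17, 11.30 and 11.34 in single-housed heads, against 11.07, 11.27 and 11.13 in group-housed heads. The groups overlapped through single-housed replicate 1 and group-housed replicate 2. The difference was 0.11 (SE 0.077, interval -0.064 to 0.28, limma adjusted p 0.739), or 1.08-fold. On the deposited scale the Hsc70-3 intensities did not overlap, at 2613, 2881 and 2396 in single-housed against 2116, 2146 and 2073 in group-housed heads. With that scaling the difference was 0.31 and still not called (limma adjusted p 0.508). There the median of all probe sets was itself 0.099. Relative to that median Hsc70-3 was at 0.21, against 0.13 after quantile normalization. With median centring the Hsc70-3 difference was 0.22, and without group-housed replicate 1 or 2 it was 0.067 or 0.17.

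Hsc70-2 encodes a further cognate of the Hsp70 family and was dim here. Its probe set 1636055_at read 5.94, 5.93 and 5.89 in single-housed heads, against 6.06, 6.18 and 6.64 in group-housed heads. The single-housed arrays were nearly equal, and the group-housed arrays lay above them and were spread out, with replicate 3 the highest. Means were 5.92 ± 0.027 in single-housed heads, against 6.29 ± 0.31 in group-housed heads (SD, n = 3). The difference was -0.37 (SE 0.16, interval -0.73 to -0.012), with a limma p of 0.044 and an adjusted p of 0.602, and the exact permutation test gave p = 0.1.

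A single array weighed on the Hsc70-2 value. Without group-housed replicate 3 the difference was -0.19. The deposited intensities were 50.5, 46.9 and 43.1 in single-housed heads, against 49.6, 48.5 and 86.7 in group-housed heads, and on that scale the groups overlapped. Because the probe set is dim, the added intensity also set the size, with -0.47 for a pseudocount of 1 and -0.22 for 64.

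**Figure D3:**
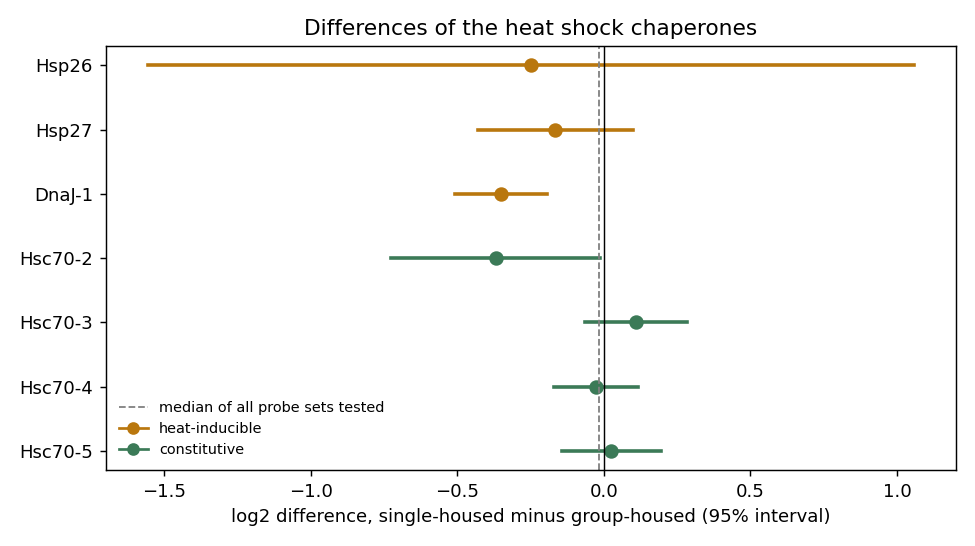
Log2 difference between single-housed and group-housed heads for each chaperone gene with its 95% interval from the limma fit, inducible genes above and constitutive genes below, with the median of all probe sets as a dashed line. All 3 inducible genes lie left of 0, and the Hsp26 interval, from -1.56 to 1.06, is the widest.

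Set against each other, the inducible genes lay below 0 in 3 of 3 cases and the constitutive genes in 2 of 4, while 54.6% of all probe sets lay below 0. The median difference was -0.25 for the inducible and -0.00055 for the constitutive genes, against -0.017 over all probe sets. The inducible median was thus 0.25 below the constitutive one, a difference of -0.25 that carries no test, since it summarises a few chosen genes. The inducible median was the value of Hsp26, the least certain of the 3.

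Taken per array, the median deviation of the inducible genes minus that of the constitutive genes was -0.038, -0.26 and -0.028 in single-housed heads, against 0.22, 0.13 and 0.010 in group-housed heads. The housing groups were apart on this scale by a narrow margin between single-housed array 3 and group-housed array 3. Groups did not overlap for 14.2% of all single probe sets either, and this score of a few chosen genes carries no test. Without single-housed replicate 2 the inducible minus constitutive median was -0.074. Over all arrays left out in turn it ran from -0.36 to -0.074.

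Other chaperone genes gave the background of the same protein-folding system. Of 50 such genes tested in 8 lists, none was called (limma), 2 were higher and 3 lower at unadjusted p 0.05, where 4.57% and 3.67% of all probe sets were, and 28 lay above 0. Their median difference was 0.016, beside the -0.017 of all probe sets. Groups did not overlap for 5 genes lower in single-housed heads, where 7.95% of all probe sets were, and for 2 genes higher, where 6.23% of all probe sets were.

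**Figure D4:**
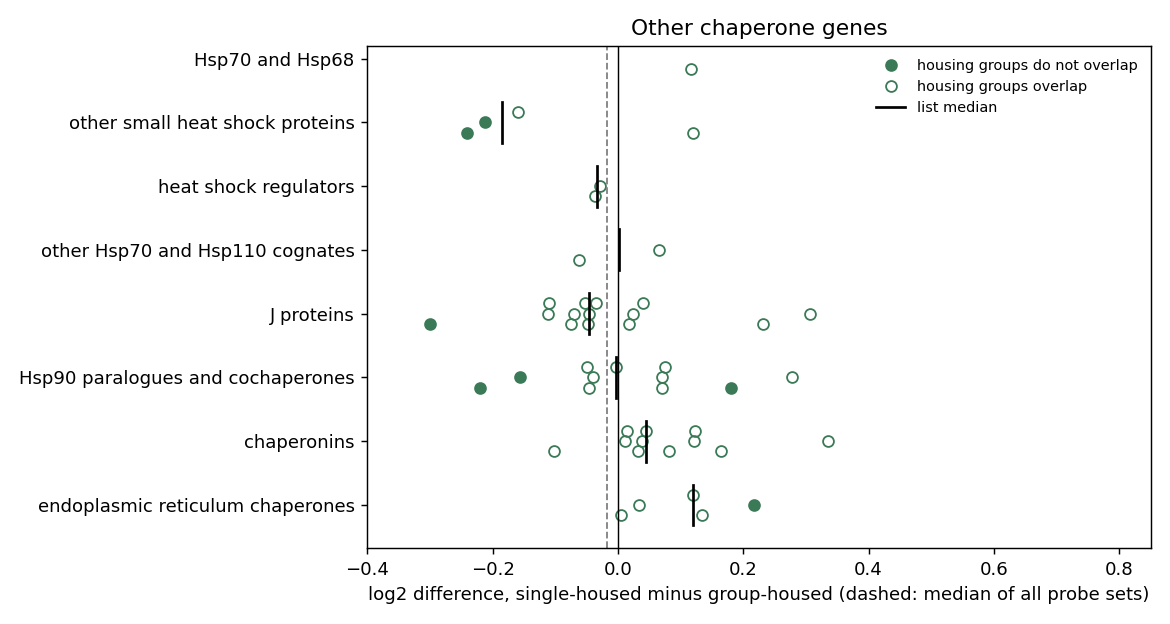
Log2 difference between single-housed and group-housed heads for 50 other chaperone genes in 8 lists, 1 point per gene. Points are filled where the housing groups do not overlap after quantile normalization. The small heat shock protein list has its median at -0.19 and the endoplasmic reticulum list at 0.12, and no gene was called.

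The other small heat shock proteins lay below 0 in 3 of 4 genes, with a median of -0.19. CG4461, which lies next to Hsp26 in the cluster, read 8.69, 8.69 and 8.71 in single-housed heads, against 8.97, 9.05 and 8.79 in group-housed heads. Its groups did not overlap, and the CG4461 difference was -0.24 (SE 0.088, limma adjusted p 0.561). CG7409 read 10.38, 10.32 and 10.21 in single-housed heads, against 10.51, 10.59 and 10.45 in group-housed heads, also without overlap. The CG7409 difference was -0.21 (SE 0.075, limma adjusted p 0.533). On the deposited scale the groups of CG4461 and CG7409 overlapped. There CG4461 was at 455, 435 and 374 in single-housed against 483, 444 and 429 in group-housed heads. CG7409 was at 1541, 1428 and 1074 in single-housed against 1435, 1321 and 1308 in group-housed heads. For l(2)efl, a small heat shock protein of muscle and other tissues, the difference was -0.16, and for CG13133 it was 0.12, both with overlapping groups. The array pattern of CG4461 and CG7409 did not show the wide range of Hsp26.

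Both regulators of the response that were measured lay near 0. Hsf, the heat shock transcription factor, was at -0.036 (SE 0.083), and stv, a BAG-family partner of Hsp70, at -0.029 (SE 0.079). Hsp68, a heat-inducible relative of Hsp70 with a probe set of its own, was at 0.12 (SE 0.20) and was lowest, at 6.00, on the group-housed array 1 on which Hsp26 was highest. The cognates Hsc70-1 and Hsp110, the exchange factor of Hsp70, were at -0.063 and 0.065. The other probe sets of Hsc70-1 were at 0.03 and -0.04, so its sign differed between probe sets.

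Among the J proteins other than DnaJ-1, 9 of 14 genes lay below 0 and the median was -0.047. The dim gene wus was at -0.30 (SE 0.15, limma adjusted p 0.646) with groups that did not overlap. P58IPK and shv, both J proteins of the secretory pathway, were at 0.23 (SE 0.11) and 0.31 (SE 0.16), and mrj was at -0.11, with overlapping groups in all 3 cases.

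Partners of Hsp90 and of the Hsp70 cycle were split. STUB1, the ubiquitin ligase CHIP that marks chaperone clients for destruction, read 9.42, 9.30 and 9.41 in single-housed heads, against 9.61, 9.56 and 9.62 in group-housed heads. After quantile normalization no array of STUB1 overlapped between the groups. Its difference was -0.22 (SE 0.072, limma adjusted p 0.499), the lowest adjusted p of the 50 genes. On the deposited scale the STUB1 groups overlapped, at 773, 681 and 620 in single-housed against 756, 638 and 753 in group-housed heads. CG1416 was at -0.16 and the kinase cochaperone gene Cdc37 at 0.18, each without overlap after quantile normalization. Their groups overlapped on the deposited scale, where the CG1416 mean was higher in single-housed heads (762 against 747). Gp93, the Hsp90 of the endoplasmic reticulum, was at 0.28 (SE 0.12).

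Chaperonins, the barrel-shaped folding machines, lay above 0 in 10 of 11 genes with a median of 0.044. No chaperonin gene reached unadjusted p 0.05. Hsp60A, the mitochondrial chaperonin, was at 0.12 (SE 0.091), CCT5 of the cytosolic complex at 0.17 (SE 0.13), CCT4 at -0.10 (SE 0.092), and the dim Hsp60B at 0.34 (SE 0.25).

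The endoplasmic reticulum list, to which Hsc70-3 belongs by location, lay above 0 in 5 of 5 genes with a median of 0.12. The 5 include the dim Pdi at 0.0042. ERp60, a protein disulfide isomerase, read 10.96, 10.98 and 10.96 in single-housed heads, against 10.69, 10.92 and 10.64 in group-housed heads. Its groups did not overlap, by a narrow margin on group-housed array 2, and the ERp60 difference was 0.22 (SE 0.082, limma adjusted p 0.561). On the deposited scale the ERp60 groups were apart too, at 2276, 2303 and 1823 in single-housed against 1623, 1678 and 1513 in group-housed heads. That scale is itself shifted, with the median difference of all probe sets at 0.099, against -0.017 after quantile normalization. Grp170, Cnx99A and Sil1 were at 0.12, 0.13 and 0.034. For ERp60, Sil1, Gp93, P58IPK and shv, as for Hsc70-3, group-housed array 2 was the highest of its group, while for Grp170, Cnx99A and Pdi it was group-housed array 1. Pdi, a further disulfide isomerase gene at 0.0042 (SE 0.20), is named after its values were seen. Its group means were both 4.74, near the filter limit of 4.69, so its order of arrays carries little weight. The head fat body markers also had group-housed array 2 as the highest of its group, with 3 of 4 listed genes measured, all 3 higher in single-housed heads, and a summed signal of 16108 to 17502 in single-housed against 5932 to 12787 in group-housed heads. So did the hemocyte markers, with 3 of 4 genes higher in single-housed heads. Their sums overlapped, at 1003 to 1092 in single-housed against 867 to 1109 in group-housed heads. Gut proteases and glial markers also had higher means in single-housed heads, each in 5 of 5 genes, with group-housed array 1 the highest of its group as for Grp170, Cnx99A and Pdi. The summed signal of the gut proteases was 733 to 2697 in single-housed heads, against 53.2 to 846 in group-housed heads, so that the groups overlapped, and that of the glial markers 5370.3 to 5691 in single-housed heads, against 4775 to 5272 in group-housed heads. The part of fat body, hemocyte, gut or glial RNA in the values of these chaperones was not tested.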

How the data were processed

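The authors deposited 1 table of linear intensities, 1 value per probe set and array. How probes were summarised, corrected for background and scaled is not given in the sources used here. Per the labels the protocol was the standard Affymetrix one. Array medians ran from 24.2 to 31.6. The 183 control probe sets were left out. Genes were named from the platform annotation, which listed 1 gene for 13647 probe sets, and all 7 chaperone probe sets matched the RefSeq gene table by gene ID.

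Values were taken as log2(intensity + 16), quantile normalized, and the dimmest 30% by mean were left out. The housing groups were compared by limma (version 3.58.1, under R 4.3.3) using lmFit and intensity-trended eBayes, 2-sided, with Benjamini-Hochberg adjustment over all 13138 probe sets. Folds refer to the log2(intensity + 16) scale, which understates changes of dim probe sets. The scripts were tested on simulated data. An intensity carries no count, so the number of arrays limits the precision.

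The genes and lists were chosen with earlier results of these data known. All 7 measured chaperone genes are named. Of each other list, up to 4 genes with the smallest p are named, and for the gene with the largest SD over the arrays, the 5 most like it. Each gene of the other lists entered through its brightest probe set. Members of marker lists are named where a result turns on them. The alternatives were other scalings, pseudocounts and filters, eBayes without the trend, the replicate number as a block, and each array left out.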

Additional observations from a re-analysis of the deposited data

How the results depend on the processing

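No chaperone gene was called under any alternative run. Of the 50 other chaperone genes, those that passed the filter of a setting were not called either, over the scalings, pseudocounts, filters, eBayes without the trend, the block and each array left out. DnaJ-1, Hsp27, Hsc70-2 and Hsc70-3 kept the sign of their difference in all of them (15 each, with DnaJ-1 from -0.40 to -0.17). The filters, eBayes without the trend, the block and the averaging of probe sets leave a chaperone gene's difference unchanged. Only the scalings, the pseudocounts and the arrays left out could have turned its sign. The sign turned for Hsc70-4 with the deposited scaling (0.17), after median centring (0.080) and in the absence of single-housed replicate 3 (0.016). Leaving out group-housed replicate 1 turned it for Hsc70-5 (-0.019) and Hsp26 (0.48). With 1 array left out Hsc70-4 ran from -0.076 to 0.016, Hsc70-5 from -0.019 to 0.087 and Hsp26 from -0.83 to 0.48. The inducible median was -0.12 and the constitutive median 0.19 with the deposited scaling, and the constitutive median was 0.10 with median centring. With 1 array left out the inducible median ran from -0.35 to -0.077, the constitutive median from -0.030 to 0.030, and their difference from -0.36 to -0.074. The number of probe sets called was 2, 78 with the deposited scaling (69 higher and 9 lower), 11 with median centring (all higher), 1 with a pseudocount of 64, 1 each for no filter and the 50% filter, 0 without the intensity trend, and 0 to 47 with 1 array left out. The replicate number as a block gave 32 calls. Same-numbered arrays had correlations of 0.0316, 0.114 and 0.329 across probe sets. Those of arrays with different numbers ran from -0.254 to 0.159, so the highest value belonged to a same-numbered pair, replicate 3. These values do not settle whether the numbers pair the samples, and the main fit did not pair them. Each of the 7 chaperone genes has 1 probe set, so averaging probe sets changed nothing for them and was not run for the others, and counting Hsp83 as constitutive was not run because Hsp83 was not analysed here. The cause of these shifts was not tested.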
